A study of Mus musculus with 8 samples.

Results

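The miR-26 family comprised 5 of the 1966 mature miRNA names in the deposited table: mmu-miR-26a-5p, mmu-miR-26a-1-3p, mmu-miR-26a-2-3p, mmu-miR-26b-5p and mmu-miR-26b-3p, written below without the species prefix. The members were taken by name, and all 5 had at least 1 count, as did 1003 names of the whole table. miRNA-seq was performed on primary articular chondrocytes (cartilage cells) from wild-type mice aged 3 weeks, obtained from the femoral heads and cultured in medium with fetal bovine serum. Cells received either vehicle (n = 4 libraries) or 1 ng/mL of the inflammatory cytokine IL-1β over 24 h (n = 4 libraries). The number of animals or separate cultures behind each library was not given in the sources used here, so the errors below measure the spread between libraries, which may be technical. The comparison asked which miRNAs respond to IL-1β in these cells, and here whether the miR-26 family does.

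A miRNA is cut from a hairpin precursor, and one arm (5p or 3p) usually becomes the guide strand that directs repression of messenger RNAs, whereas the other is mostly degraded. Target choice rests largely on the seed, bases 2 to 8 of the miRNA. miR-26 is known as a growth-restraining family, and the messenger RNA of the chromatin regulator Ezh2 is a well-known target. Its hairpins lie in introns of the Ctdsp genes, which encode small phosphatases that act on RNA polymerase II and on the retinoblastoma protein.

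The mature sequences below (RefSeq, GRCm38.p6) are shown because their likeness decides which members can be told apart by counting. Capitals mark the seed.

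miR-26a-5p: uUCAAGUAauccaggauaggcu

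miR-26b-5p: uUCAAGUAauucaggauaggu

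miR-26a-1-3p: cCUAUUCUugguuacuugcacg

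miR-26a-2-3p: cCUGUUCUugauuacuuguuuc

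miR-26b-3p: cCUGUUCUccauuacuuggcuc

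Both 5p arms carried the seed UCAAGUA, which no other of the 1679 mature mouse names in the RefSeq table had. Counted from the 5′ end of miR-26a-5p, miR-26b-5p differed by C11U and C21U and was 1 base shorter, with 19 of 21 compared positions identical. The 3p arms were less alike. miR-26a-2-3p and miR-26b-3p shared the seed CUGUUCU and differed by U9C, G10C, U19G and U20C, whereas miR-26a-1-3p (named first in the substitution) differed from miR-26a-2-3p by A4G within the seed and at 5 further positions. The seed CUGUUCU was also present in miR-6932-3p and miR-7039-3p, which had 1 count and 0 counts in the 8 libraries together.

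The hairpins are shown next because each hairpin has its own host gene, and because the 5p arm of miR-26a is made from 2 of them. Capitals mark the mature arms, the 5p arm first.

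Mir26a-1: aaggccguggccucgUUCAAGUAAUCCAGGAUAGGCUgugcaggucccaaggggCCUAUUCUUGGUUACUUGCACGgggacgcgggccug

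Mir26a-2: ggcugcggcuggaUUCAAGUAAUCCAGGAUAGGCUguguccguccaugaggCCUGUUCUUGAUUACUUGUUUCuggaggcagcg

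Mir26b: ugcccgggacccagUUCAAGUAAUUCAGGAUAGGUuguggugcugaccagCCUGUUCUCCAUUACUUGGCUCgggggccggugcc

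Mir26a-1 lies at chr9:119031796-119031885 (GRCm38, plus strand), in intron 5 of 7 of Ctdspl. For each host, the longest protein-coding transcript spanning the hairpin was used (GENCODE vM21). Mir26a-2 lies at chr10:126995530-126995613 (plus strand), in intron 5 of 7 of Ctdsp2, and its last base is the first base of 2 shorter annotated Ctdsp2 transcripts. Mir26b lies at chr1:74394310-74394394 (plus strand), in intron 4 of 6 of Ctdsp1. Each hairpin had the orientation of its host. The introns measured 3283, 1946 and 564 bases, and the hairpins began 1543, 1621 and 234 bases after the preceding exon, in the order Ctdspl, Ctdsp2 and Ctdsp1. The host messenger RNAs were not analysed here.

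**Figure D1:**
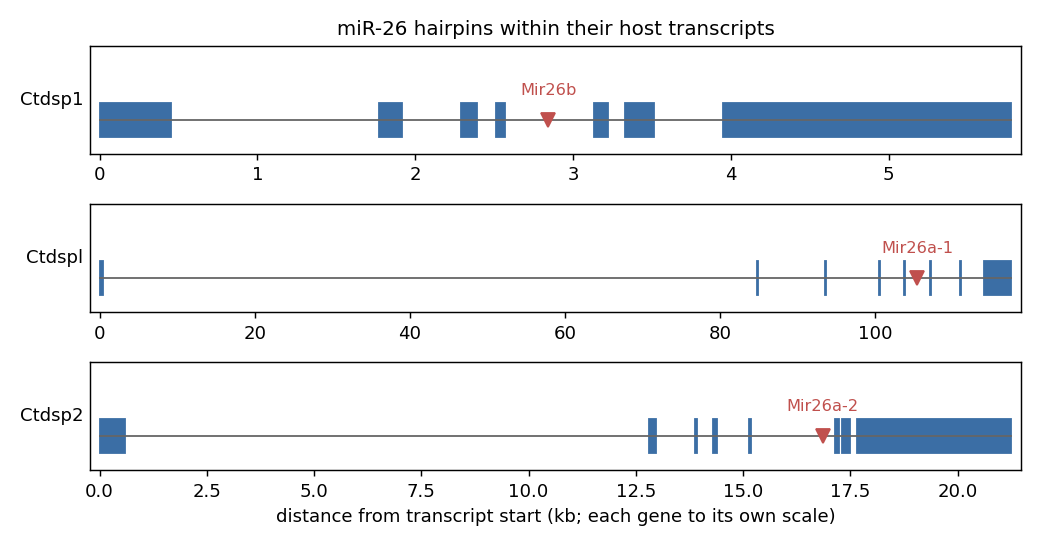
Exons (blue boxes, with a minimum drawn width) and introns (line) of the 3 host transcripts, with the miR-26 hairpin as a red triangle; the x axis is the distance from the transcript start in kb, and each gene has its own scale. Mir26b lies in the shortest host intron, of 564 bases, and Mir26a-1 and Mir26a-2 lie in introns of 3283 and 1946 bases.

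Because both miR-26a hairpins give the identical 5p arm, its counts could not be divided between Ctdspl and Ctdsp2. The deposited table listed miR-26a-5p at 22 bases, the length of 1 locus. Of 53 names with several loci in RefSeq, 20 were listed at the summed length, 31 at the length of 1 locus and 2 at another length. How reads with several possible places were counted was not given in the sources used here, so the level of miR-26a-5p is uncertain on this point, whereas its comparison between groups used the same counting in all 8 libraries.

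The vehicle libraries held 633625 to 1568367 counts and the IL-1β libraries 616475 to 1145577. Levels are given as normalized CPM, CPM being a count divided by the library total in units of 1e6, after the total was multiplied by a TMM factor that corrects for composition. A single count was worth 0.625 to 1.60 normalized CPM. IL-1β replicate 4 stood apart from the other libraries. Over the 195 miRNAs averaging 50 counts or more, the SD of its log2 deviations from the other 3 libraries of its group was 0.40, against 0.15 to 0.23 in the other 7 libraries. The fold changes and the ratio of the paralogs are therefore also given without it. The chondrocyte miRNAs miR-140 and miR-455 took 15.6% to 16.8% of counts in the vehicle libraries and 12.4% to 15.3% in the IL-1β libraries. These shares did not overlap, a separation in this direction that 3.37% of single tested miRNAs showed with library totals. Of their 1233660 counts over all 8 libraries, 1193044 were miR-140-3p (edgeR adjusted p = 0.546). All 4 of their arms had negative estimates with IL-1β (log2 fold change -0.35 to -0.15). None was called (smallest edgeR adjusted p = 0.0691), against 1.95% of all tested miRNAs. In the same edgeR fit, 2 of the 4, miR-455-3p and miR-140-5p, had an unadjusted p under 0.05. Of all tested miRNAs, 4.08% had such a p and a lower estimate with IL-1β. In such bulk samples, fewer cells of a type and less RNA per cell cannot be told apart. Among miRNAs typical of other cells, 6 muscle and 2 liver names were at 0 counts, and epithelial names had 20 counts in all. The epithelial share was 0% to 0.000158% with vehicle (0 to 2 counts per library) and 0.000162% to 0.001007% with IL-1β (1 to 7 counts per library). The haematopoietic share was 0.00452% to 0.00638% with vehicle and 0.00260% to 0.00471% with IL-1β. Of its 376 counts, 370 were miR-150-5p (log2 fold change -0.51, edgeR adjusted p = 0.196), while miR-142a-3p, miR-223-3p, miR-144-3p and miR-451a were at 0. Endothelial miR-126a-3p had 8 counts in all.

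miR-26a-5p dominated the family. With vehicle, its normalized CPM in replicates 1 to 4 was 10284, 10011, 9870 and 10370. With IL-1β, its normalized CPM in replicates 1 to 4 was 8992, 9106, 9976 and 12009. The vehicle libraries lay close together, and the IL-1β libraries spread to both sides of them, with 2 below every vehicle library, 1 within their range and replicate 4 above all of them. miR-26a-5p ranked 19th of 1003 detected names by mean level, between miR-10b-5p (8166 to 18813 normalized CPM over the 8 libraries) and miR-30d-5p (9486 to 10712 normalized CPM), and these ranges overlapped with its own, so the order of the 3 was not resolved. In counts, miR-26a-5p made up 97.3% to 98.4% of the family in every library, and the family as a whole made up 1.05% ± 0.0272 of vehicle counts and 1.01% ± 0.0903 of IL-1β counts (SD, n = 4).

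**Figure D2:**
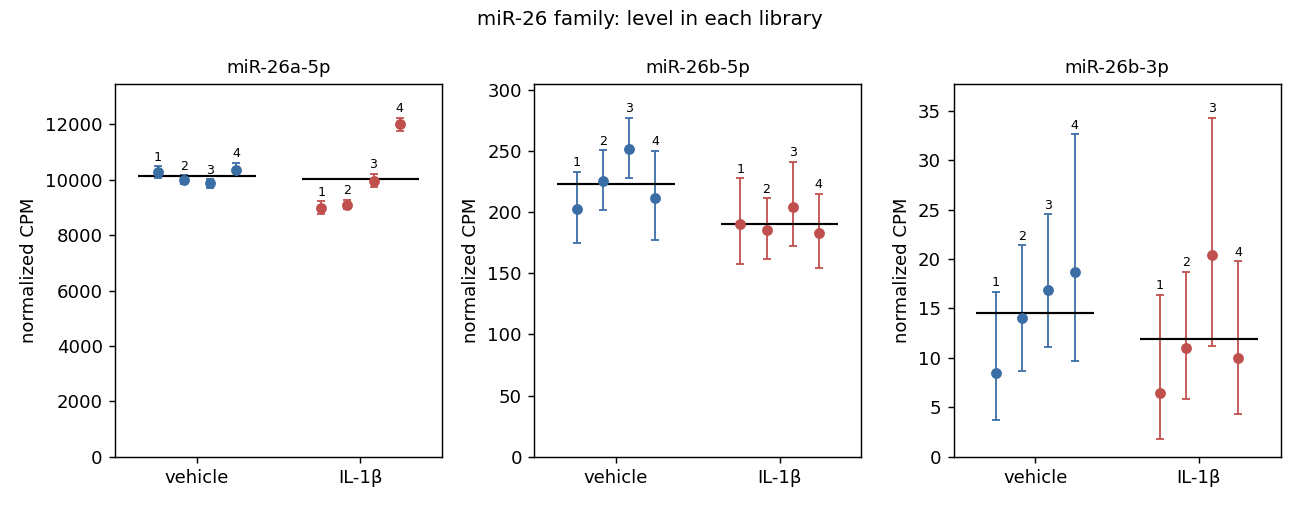
Normalized CPM (y axis) of miR-26a-5p, miR-26b-5p and miR-26b-3p in the 4 vehicle (blue) and 4 IL-1β (red) libraries; numbers are replicates, vertical bars are exact 95% counting intervals and horizontal lines are group means. IL-1β replicate 4 is the highest library for miR-26a-5p (12009 normalized CPM) and the lowest for miR-26b-5p (183 normalized CPM).

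The mean of miR-26a-5p was 10134 ± 233 normalized CPM with vehicle and 10021 ± 1396 with IL-1β (n = 4, SD). In the edgeR quasi-likelihood fit over all 564 tested miRNAs, its log2 fold change was -0.02 (SE 0.0900, 95% interval -0.20 to 0.17, Benjamini-Hochberg adjusted p = 0.992). The interval corresponds to 0.869-fold to 1.125-fold and lay inside the change of 0.3 on the log2 scale that a call required. A miRNA was called at an adjusted p under 0.05 and an absolute log2 fold change over 0.3, and 11 of 564 tested miRNAs (1.95%) were called, 8 higher with IL-1β (1.42%) and 3 lower (0.532%), none of them of the miR-26 family. Of the 564, 6.21% had a smaller absolute log2 fold change than miR-26a-5p. Without IL-1β replicate 4 the log2 fold change of miR-26a-5p was -0.11 (SE 0.0567, unadjusted p = 0.0511, edgeR adjusted p = 0.390). The unadjusted edgeR p with all 8 libraries was 0.860. IL-1β replicate 4 thus moved the estimate towards 0 and widened its error. With library totals in place of TMM scaling, replicate 4 was at 11192 CPM and remained the highest library, and the other 3 IL-1β libraries all lay below the vehicle libraries.

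Counting error was a small part of this spread. At 5621 to 15798 counts per library, counting alone gives a coefficient of variation of 0.979% with vehicle and 1.14% with IL-1β, whereas the observed values were 2.30% and 13.9%. Without IL-1β replicate 4, the IL-1β value was 5.75% (n = 3), so much of the spread in that group rested on this library. A difference in spread between the groups was not tested.

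**Figure D3:**
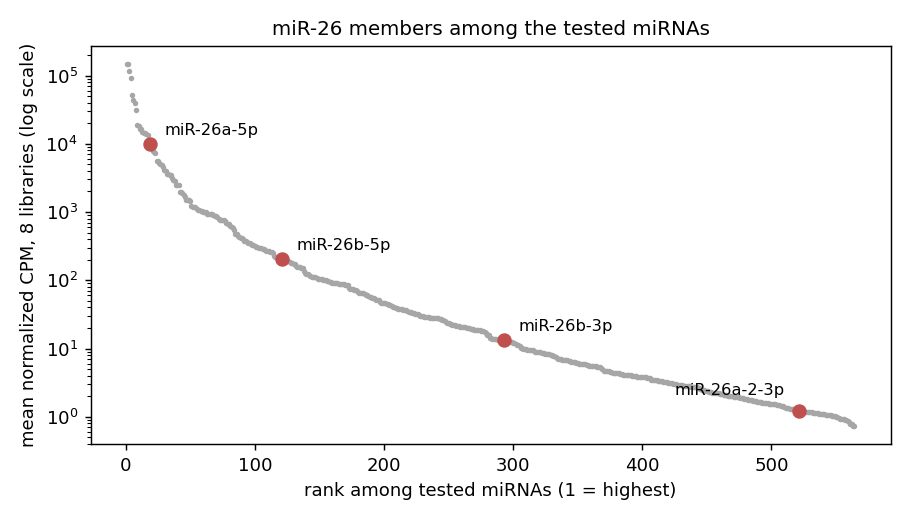
Mean normalized CPM over the 8 libraries (y axis, log scale) of the 564 tested miRNAs, ordered by level (x axis, rank); red points are the 4 miR-26 members that passed the filter on low counts. miR-26a-5p is at rank 19, miR-26b-5p at 121, miR-26b-3p at 293 and miR-26a-2-3p near the low end.

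miR-26b-5p, which has the same seed as miR-26a-5p but a separate host gene, was far less abundant. Its normalized CPM in vehicle replicates 1 to 4 was 203, 226, 252 and 212. The corresponding IL-1β values were 190, 185, 205 and 183. The IL-1β libraries were low, 3 of the 4 lying below every vehicle library, and IL-1β replicate 3 lay just above vehicle replicate 1. With library totals in place of TMM scaling all 4 IL-1β libraries lay below all 4 vehicle libraries, a separation in this direction that 3.37% of the tested miRNAs showed (3.01% with TMM).

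Its mean was 223 ± 21.4 normalized CPM with vehicle and 191 ± 9.66 with IL-1β (n = 4, SD), a ratio of means of 0.856. The log2 fold change was -0.23 (SE 0.106, 95% interval -0.45 to -0.02, unadjusted p = 0.0362, edgeR adjusted p = 0.372), and miR-26b-5p was not called. By unadjusted p it was 55th of 564, and 11.2% of the tested miRNAs had an unadjusted p under 0.05, including 4.08% with a lower estimate with IL-1β. The chondrocyte share of counts given above was also lower in all 4 IL-1β libraries, and its part in the lower miR-26b-5p values was not tested. Of the tested miRNAs, 51.8% had a smaller absolute log2 fold change. The value was -0.23 without IL-1β replicate 4 (edgeR adjusted p = 0.313) and -0.17 without vehicle replicate 3 (edgeR adjusted p = 0.806), the library with the highest level. Its estimate was negative under each of the 15 alternatives, with an adjusted p of 0.118 to 0.806. Its unadjusted p ranged from 0.0115 to 0.167 over these alternatives and was above 0.05 in 5 of the 15, namely DESeq2, the replicate block and the edgeR fits without vehicle replicate 2, vehicle replicate 3 or IL-1β replicate 2. Counting alone gives a coefficient of variation of 6.71% with vehicle and 8.21% with IL-1β, against observed values of 9.61% and 5.06%, so the spread between libraries was close to counting error at 119 to 403 counts. miR-26b-5p ranked 121st, between miR-15b-5p (177 to 249 normalized CPM) and miR-365-3p (171 to 272 normalized CPM), and this order was not resolved.

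miR-26b-3p, the other arm of the same hairpin, had a normalized CPM of 8.48, 14.0, 16.9 and 18.7 in vehicle replicates 1 to 4. The corresponding IL-1β values were 6.40, 10.96, 20.5 and 10.03. The groups overlapped, and the highest and the lowest of the 8 libraries were both IL-1β libraries. These values rest on 4 to 27 counts per library. The mean was 14.5 ± 4.46 with vehicle and 12.0 ± 5.997 with IL-1β (n = 4, SD). The fit gave a log2 fold change of -0.28 (SE 0.334, 95% interval -0.97 to 0.41, edgeR adjusted p = 0.794). The interval corresponds to 0.510-fold to 1.33-fold, so neither a fall nor a rise was resolved. Counting alone gives a coefficient of variation of 27.1% with vehicle and 36.2% with IL-1β, against observed values of 30.7% and 50.1%. Without IL-1β replicate 3 the log2 fold change was -0.60 (edgeR adjusted p = 0.686), and without IL-1β replicate 4 it was -0.21 (edgeR adjusted p = 0.907).

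**Figure D4:**
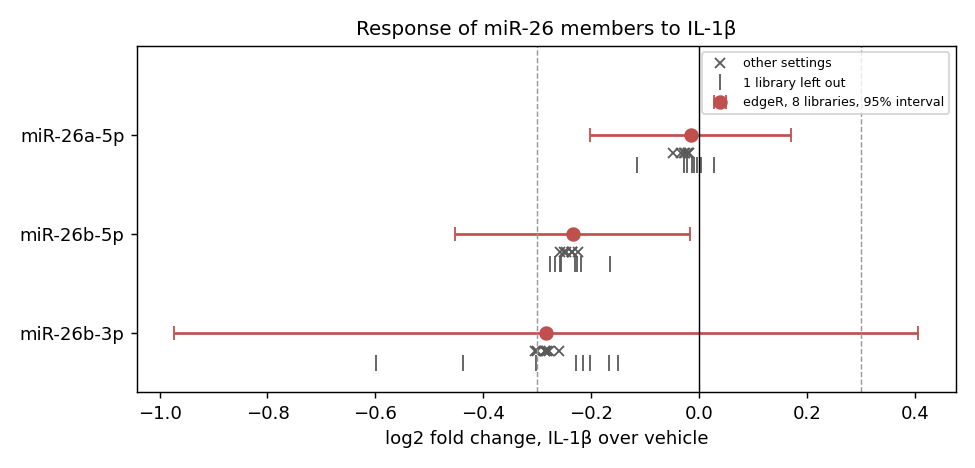
Log2 fold change of IL-1β over vehicle (x axis) for 3 miR-26 members; red points and bars are the edgeR estimates from 8 libraries with 95% intervals, crosses are other processing settings and ticks are fits without 1 library. Dashed lines mark the change of 0.3 required for a call. The interval of miR-26a-5p lies inside the dashed lines, and those of miR-26b-5p (-0.45 to -0.02) and miR-26b-3p (-0.97 to 0.41) reach beyond them.

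The 3p arms of miR-26a were nearly absent. miR-26a-1-3p, made from the Ctdspl intron, had 1 count in all, in IL-1β replicate 2, and was at 0 in the other 7 libraries, where 0 counts allow up to 1.87 to 4.80 normalized CPM depending on the library. miR-26a-2-3p, made from the Ctdsp2 intron, had 0, 3, 1 and 0 counts in vehicle replicates 1 to 4 and 2, 0, 1 and 2 counts in IL-1β replicates 1 to 4. Although miR-26a-2-3p passed the filter on low counts, no library exceeded 3 counts, and no fold change is given for either arm. The 3p arms differ between the hairpins, but 1 and 9 counts were too few to say how the Ctdspl and Ctdsp2 loci divided the shared 5p arm.

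The hairpins differed in how their counts fell on the arms. Over all 8 libraries, the 3p arm held 107 of 1800 miR-26b counts, or 5.94% (exact 95% binomial interval 4.90% to 7.14%), and 10 of 80000 miR-26a counts, or 0.0125% (0.00599% to 0.0230%). These intervals cover counting error only. In each library, the 3p share of miR-26b, at 3.25% to 9.09%, exceeded that of miR-26a, at 0% to 0.0356%. By group, the 3p share of miR-26b averaged 6.06% ± 1.68 (vehicle) and 5.78% ± 2.43 (IL-1β; SD, n = 4). A share of counts need not equal a share of molecules.

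**Figure D5:**
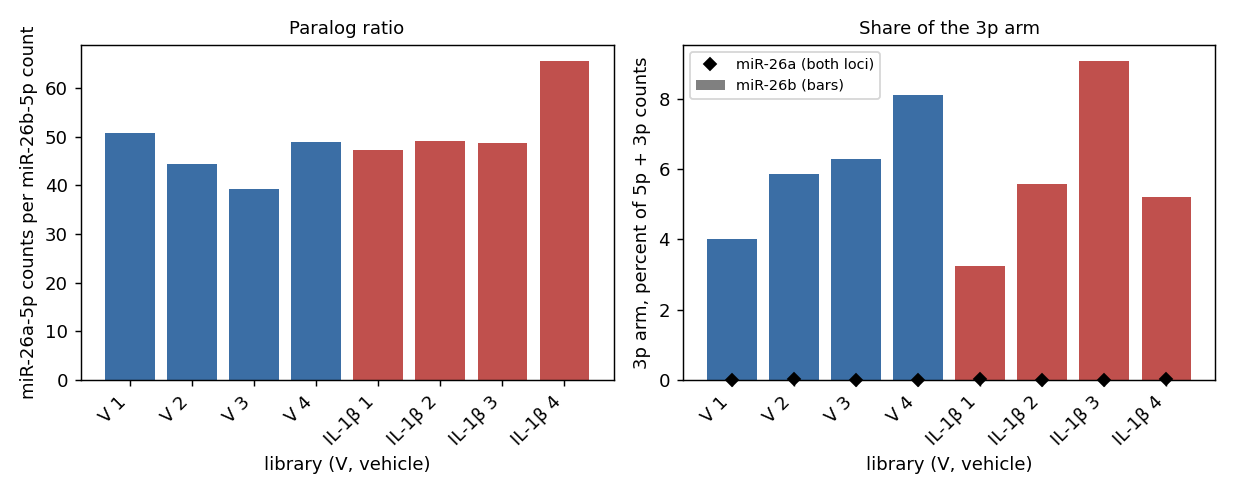
Left, miR-26a-5p counts per miR-26b-5p count (y axis) in each library; right, 3p arm as a percentage of the 5p and 3p counts of a hairpin, with bars for miR-26b and black diamonds for miR-26a. Blue is vehicle and red is IL-1β. IL-1β replicate 4 has the highest paralog ratio, at 65.6, and the share of the 3p arm is higher for miR-26b in all 8 libraries.

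Ratios of counts within a library do not depend on scaling between libraries. There were 50.8, 44.4, 39.2 and 48.9 miR-26a-5p counts per miR-26b-5p count in vehicle replicates 1 to 4, and 47.2, 49.1, 48.8 and 65.6 in IL-1β replicates 1 to 4. Apart from IL-1β replicate 4, the IL-1β libraries lay within the range of the vehicle libraries. The mean was 45.8 ± 5.17 with vehicle and 52.7 ± 8.67 with IL-1β (n = 4, SD), and the difference in mean log2 ratio was 0.19 (exact permutation test over 70 arrangements, two-sided p = 0.257, adjusted over 2 ratios 0.514). It was 0.08 without IL-1β replicate 4 (exact permutation p = 0.514). The ratio of miR-26b-5p to miR-26b-3p counts was 16.6 ± 5.28 with vehicle and 18.7 ± 8.19 with IL-1β (n = 4, SD), a log2 difference of 0.09 (exact permutation p = 0.771, adjusted 0.771). The smallest p this test allows is 0.0286. The ratio of miR-26a-5p to its 3p arms was not tested, because 2 vehicle libraries had no 3p count.

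Across the 8 libraries, no relation between the log2 levels of miR-26a-5p and miR-26b-5p was resolved. Pearson's r was -0.08 (exact permutation p = 0.848, adjusted over 3 relations 0.910) and Spearman's rho was -0.05 (exact permutation p = 0.935, adjusted 0.935). Without the 2 libraries farthest from the median of miR-26a-5p (IL-1β replicates 1 and 4) r was 0.38 (exact permutation p = 0.446), and without IL-1β replicate 4 alone it was 0.53 (exact permutation p = 0.217), so the sign rested on that library. The level of miR-26a-5p had an r of -0.05 with the log2 library total (exact permutation p = 0.910, adjusted 0.910, rho -0.05, exact permutation p = 0.935, adjusted 0.935). That of miR-26b-5p had an r of 0.58 (exact permutation p = 0.134, adjusted 0.401, rho 0.40, exact permutation p = 0.327, adjusted 0.935), which was -0.50 without the 2 deepest libraries, vehicle replicates 2 and 3 (exact permutation p = 0.294). Neither relation was past the threshold, and the latter rested on these 2 libraries.

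Among 193 other tested miRNAs averaging 50 counts or more, those whose log2 level most resembled miR-26a-5p over the 8 libraries were miR-23a-3p, miR-92a-3p and miR-151-5p, with Pearson correlations of 0.963, 0.925 and 0.924. These are descriptions over 8 points that share library and scaling, chosen as the highest of 193. Without IL-1β replicate 4 the correlations were 0.915, 0.786 and 0.763 over 7 libraries. miR-23a-3p was at 818 ± 22.1 normalized CPM with vehicle and 782 ± 118 with IL-1β (n = 4, SD), and at 724 ± 20.1 with IL-1β without replicate 4 (n = 3), so its wider IL-1β spread rested on that library. Those most like miR-26b-5p were miR-140-3p, miR-501-3p and miR-542-5p, with correlations of 0.881, 0.813 and 0.797. miR-140-3p, a cartilage miRNA, was at 155137 ± 7341 normalized CPM with vehicle and 139691 ± 9302 with IL-1β (n = 4, SD), and none of the 6 miRNAs was called (edgeR adjusted p of 0.427 to 0.992).

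miR-26 was set beside other guide strands known to restrain entry into the cell cycle, namely let-7 and miR-98, the miR-15/16 group, and the miR-34 and miR-449 families. Of 20 listed, all had counts and 17 were tested, and 0 of 17 were called in either direction by edgeR (0 of 4 for the tested miR-26 members, against 1.95% of all tested miRNAs). At an unadjusted p under 0.05 there were 2 of 17 (11.8%, against 11.2% of all tested miRNAs), both with higher estimates with IL-1β (7.09% of all tested miRNAs had such a p and a higher estimate), let-7i-5p (log2 fold change 0.20, unadjusted p = 0.0283, edgeR adjusted p = 0.336) and the scarce miR-195a-5p (0.88, unadjusted p = 0.0459, edgeR adjusted p = 0.427). The median log2 fold change of the 17 was 0.01, the same to 2 decimals as that of all 564 tested miRNAs, 0.01. Of the 17, 8 had negative estimates.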

How the data were processed

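miRNA-seq counts from 8 libraries of mouse articular chondrocytes (4 vehicle, 4 IL-1β) were analysed. The deposited columns were whole-number counts for each mature miRNA name and, per the labels and the methods of the study, the authors trimmed reads with cutadapt, aligned them to mm10 with GENCODE vM20 and STAR (2.4.2a in the submitters' processing notes, another version in the methods, with default settings) and counted with featureCounts. The deposited length column (bases) was used to describe loci. Whether these whole-number counts carry the batch correction of the methods could not be told from them. They were treated as raw counts, also for counting error and exact intervals. The source of the mature miRNA names, the strand setting and the treatment of multi-mapping reads are not given in the sources used here.

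Groups and replicate numbers came from the labels. Members and lists were chosen with earlier results of these data known. miRNAs over 1 CPM in at least 4 of 8 libraries (564) were tested with the robust quasi-likelihood test of edgeR 4.0.16 (R 4.3.3), with TMM factors (0.932 to 1.04) and group as the only term, two-sided, with Benjamini-Hochberg adjustment over all 564. Libraries held 616475 to 1568367 counts. For miR-26a-5p the spread between libraries exceeded counting error. The SE was the log2 fold change divided by the square root of F. The fitting code was also run on simulated counts in which no library stood apart. Its outcome is not given here, and no result rests on it. Ratios had 0.5 added to each count in tests. Intervals of log2 fold changes came from the edgeR estimate and SE, and those of counts and shares are exact 95% binomial (two-sided). For a count of 0, a limit of 3 counts was used, which is lower than the upper end of the two-sided exact interval. Exact permutation tests used scipy 1.17.1. Named miRNAs were the members, names sharing a seed, chondrocyte markers, the 3 most alike by Pearson correlation and the nearest in level; list members with an unadjusted p under 0.05 and marker miRNAs of other cells were named after their values were seen. Alternatives were other scaling, filters, DESeq2 1.42.0, a replicate block, a factor of unwanted variation and leaving out each library. Spread and likeness without IL-1β replicate 4 were added after seeing the data.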

Additional observations from a re-analysis of the deposited data

Results flagged for a closer look

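In 3 of 38 groups of 4 libraries examined, 1 library lay far from the other 3. Chance alone flags about 1 in 20. The ratio of miR-26a-5p to miR-26b-5p counts was 65.6 in IL-1β replicate 4 against 47.2 to 49.1 in the other IL-1β libraries (gap 0.898 of the range). miR-23a-3p, the miRNA most like miR-26a-5p in level, was at 956 normalized CPM in the same library against 710.5 to 747 (gap 0.853). It was chosen for its likeness to miR-26a-5p over these same libraries, in which replicate 4 was the highest for miR-26a-5p, so this is not a separate observation and cannot be read against the chance rate. The chondrocyte marker miR-455-3p was at 5585 normalized CPM in vehicle replicate 1 against 5053 to 5080 (gap 0.949). The part of depth, cell mixture or library preparation in these values was not tested.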

How the results depend on the processing

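No miR-26 member was called under any of the 15 alternatives. For miR-26a-5p the log2 fold change was -0.11 to 0.03 over the fits that left out 1 library, and it turned positive without IL-1β replicate 1 (0.004) or 2 (0.0273), values close to 0. For miR-26b-5p that range was -0.28 to -0.17 and for miR-26b-3p -0.60 to -0.15. DESeq2 gave no adjusted p for miR-26b-3p. The number of miRNAs called, 11, was 28 with a factor of unwanted variation, 19 with the replicate block and 7 to 19 when 1 library was left out (7 without vehicle replicate 2 or IL-1β replicate 1, 19 without IL-1β replicate 4). Whether the replicate numbers pair the libraries could not be settled with 4 libraries per group. Deviations of same-numbered libraries from their group means correlated from -0.35 to 0.17 over 195 miRNAs. Of the 4 pairs, 2 exceeded 0.1, and 3 of 8 libraries correlated best with their own number. With the replicate block miR-26b-5p was at -0.23 (edgeR adjusted p = 0.516). The log2 difference in the ratio of miR-26b-5p to miR-26b-3p was -0.14 to 0.34 when 1 library was left out (-0.08 without vehicle replicate 4, -0.14 without IL-1β replicate 1). The correlation of miR-26a-5p with miR-26b-5p ranged from -0.31 to 0.53 in such fits, and that of miR-26a-5p with the library total from -0.355 to 0.0586 and was 0.0103 with library totals in place of TMM. The causes of these moves were not tested. Depth limits the 3p arms, at 107, 9 and 1 counts in all.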
